A study of Homo sapiens with 8 samples.

Results

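The genes described here are 39 that carry out or answer to the amino acid response: 19 aminoacyl-tRNA synthetases, 9 stress factors, 8 enzymes of amino acid synthesis and 3 amino acid transporters, the last 20 being genes usually listed with the transcription factor ATF4. They were chosen by name, with earlier results of these data known. Of the 39, 38 were among the 17912 genes of the expression tables. The expression of CHAC1 was not analysed here, and only its promoter is counted below. RNA was sequenced from NKM-1, an established human acute myeloid leukemia cell line, labelled as myeloid and of wildtype genotype. Cells received SF153 at 30 uM or DMSO, its solvent, for 48 h, and the series describes SF153 as an inhibitor of splicing factors that hold a U2AF homology motif. Each treatment had 4 libraries, 2 in each of 2 labelled batches, written below as batch and library number (SF153 2.1 is a library of batch 2). A single line, dose and time were sampled, and the labels do not say whether the 2 libraries of a treatment and batch came from separate cultures. The library names of such a pair share a leading number and carry the letters A and B, so both may come from the same sample. The p-values therefore measure the spread between libraries, which may be technical.

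An aminoacyl-tRNA synthetase joins 1 amino acid to its tRNAs, and several of the cytosolic synthetases sit together in a large multisynthetase complex. When uncharged tRNA, unfolded protein, heme shortage or viral RNA activates a kinase of the translation initiation factor eIF2, general translation slows while ATF4 mRNA is translated more, so that ATF4 activity is set largely at the protein level. ATF4, paired with a C/EBP or related protein, binds response elements near genes for synthetases, amino acid enzymes and transporters, and for factors such as DDIT3 (CHOP) that shape cell survival.

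The element searched for was TGATGNAA on either strand, the core of the C/EBP-ATF response element. RefSeq promoter windows (GRCh38.p14, 250 bases before to 50 after each gene start) were found for 32 of the 39 genes. The letters were present in 12 of the 32 (37.5%), against 1217 of the 27305 genes of the promoter table (4.46%). Counted by window, they were in 12 of the 48 windows of these genes (25.0%), against 3.62% of all windows of that length. Genes of this group are textbook carriers of the element, so the share describes the group and is no test. By class, 7 of 16 synthetases, 3 of 9 stress factors, 1 of 5 amino acid enzymes and 1 of 2 transporters held it. LARS1, VARS1, YARS1, PSPH, SHMT2, PYCR1 and SLC7A11 had no window in the table. The 7 synthetase sites are shown because synthetases with and without the element are set apart below; ASNS is the classic amino acid response gene and CEBPG encodes a partner of ATF4. Each line gives the gene strand 5′ to 3′ in GRCh38.p14, with the element in capitals (TTGCATCA is TGATGCAA read on the other strand).
AARS1 at chr16:70289675-70289704, minus strand: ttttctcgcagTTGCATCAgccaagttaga
CARS1 at chr11:3057407-3057436, minus strand: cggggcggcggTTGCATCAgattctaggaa
GARS1 at chr7:30594834-30594863, plus strand: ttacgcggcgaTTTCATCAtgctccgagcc
IARS1 at chr9:92293692-92293721, minus strand: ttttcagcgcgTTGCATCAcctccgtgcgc
MARS1 at chr12:57488053-57488082, plus strand: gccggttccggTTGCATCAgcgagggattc
NARS1 at chr18:57621804-57621833, minus strand: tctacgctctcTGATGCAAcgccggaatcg
TARS1 at chr5:33440956-33440985, plus strand: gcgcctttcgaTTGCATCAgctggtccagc
ASNS at chr7:97872458-97872487, minus strand: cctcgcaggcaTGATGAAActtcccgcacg
CEBPG at chr19:33374060-33374089, plus strand: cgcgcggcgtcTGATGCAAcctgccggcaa
A match is a run of letters, not evidence of binding.

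Values below are the deposited signal, which the submitters name both cpm and TPM. It is read here as a TPM-type unit, one that takes transcript length into account and is relative to the rest of the library. The signal summed to 828381 and 835840 in SF153 2.1 and 2.2. In the other libraries it summed to 990815 to 1027119, so the libraries do not share 1 total. Differences are on the log2(signal + 1) scale, SF153 minus DMSO, tested with limma without a batch term. The fit covered the 15542 genes whose mean over the 8 libraries was 1 or more, and a gene counts as called where its p, adjusted by Benjamini and Hochberg's method over all of them, was under 0.05. All 38 genes passed that floor. Mitochondrially encoded genes took 9.17 to 9.92% of the signal in 6 libraries, and 16.8% in both SF153 libraries of batch 2. Small RNA genes took 33.9 to 38.5% in DMSO, 45.8 and 47.0% in SF153 batch 1 and 32.9 and 33.3% in SF153 batch 2. Of 10 myeloid markers 9 were in the tables, ELANE not, and their summed signal was 1488 to 1716 in DMSO and 1153 to 1373 in SF153, with 3 lower and 2 higher. None of 6 erythroid and megakaryocytic markers, 1 of 6 lymphoid markers (CD79A, summed 24.7 to 29.4 in DMSO and 3.39 to 10.1 in SF153) and 1 of 6 epithelial and fibroblast markers (PDGFRB, 26.1 to 31.9 and 20.5 to 29.4, not called) were in the tables. In bulk RNA, fewer cells of a type and less RNA per cell cannot be told apart. The part of these shifts in the results below was not tested.

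After SF153, the mRNAs of enzymes that make serine, one-carbon units and proline fell. Those of the synthetases divided, and the mRNA of ATF4 itself did not pass the test. Of the 38 genes, 22 were called lower and 3 higher, and 13 were not called. Over all genes tested, 24.3% were called lower and 13.0% higher, so lower calls were frequent in the whole table. With the 2 libraries of a treatment and batch averaged, a fit with fewer values, 11 of the 22 lower and 1 of the 3 higher calls remained. Over all 15542 genes that fit called 2519 lower and 910 higher. The median difference of the 38 genes was -0.35, beside -0.03 over all genes tested. Every SF153 library lay below every DMSO library for 23 of the 38 genes (23.6% of all genes) and above for 3 (13.2% of all genes). By class, 7 of 8 amino acid enzymes, 12 of 19 synthetases, 2 of 3 transporters and 1 of 8 stress factors were called lower. The median difference was -0.94 for the amino acid enzymes, -0.30 for the synthetases, -0.31 for the stress factors and -0.24 for the transporters.

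**Figure D1:**
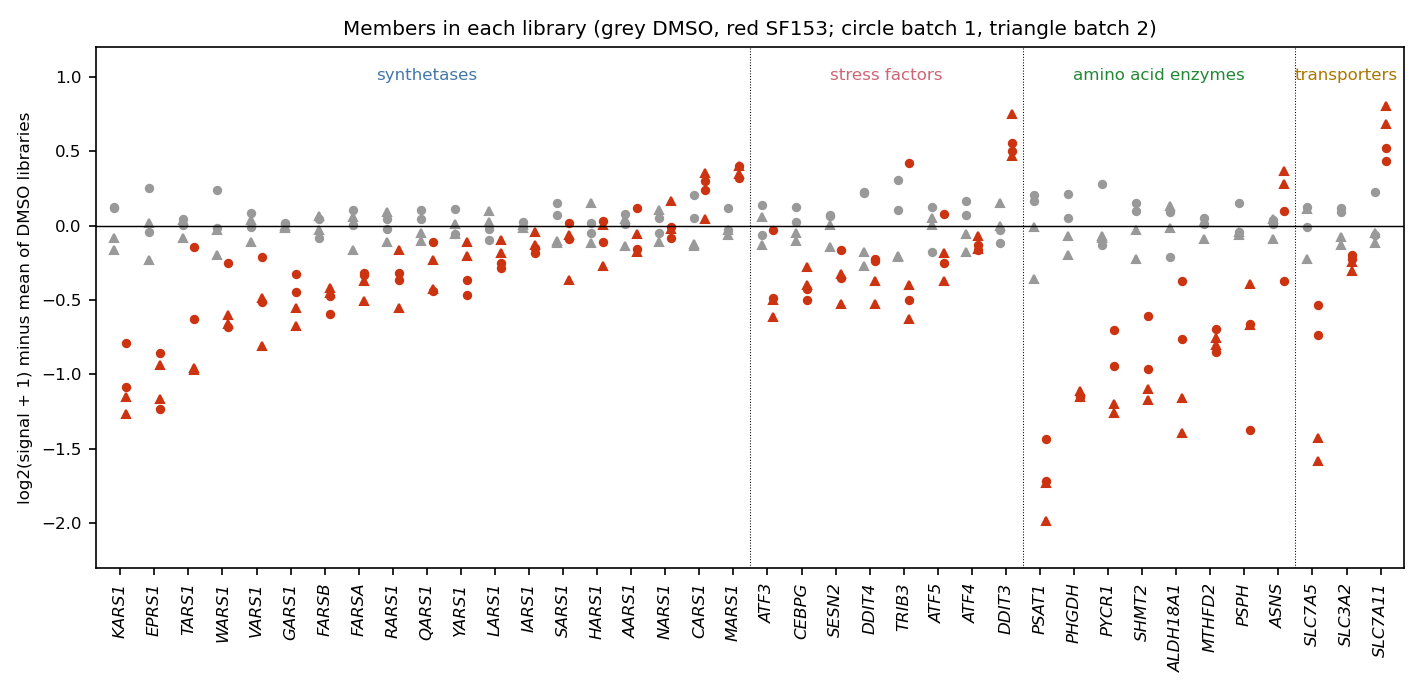
Log2(signal + 1) of each of the 38 genes (x axis, by class) in each library minus the gene's mean over the DMSO libraries (y axis); grey points are DMSO, red points SF153, circles batch 1 and triangles batch 2. The amino acid enzymes other than ASNS are low in all 4 SF153 libraries, whereas MARS1, DDIT3 and SLC7A11 are high in all 4.

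The calls depended on how libraries were scaled. Removing 15 mitochondrially encoded and 318 small RNA genes and rescaling each library raised the median difference of all genes by 0.32. With that scaling 12.6% of 16816 genes were called lower and 32.3% higher. The 8 amino acid enzymes then had 6 lower calls and a median of -0.62. The 19 synthetases had 2 lower calls (EPRS1 and KARS1), 5 higher calls (AARS1, CARS1, IARS1, MARS1 and NARS1) and a median of 0.04, in place of 12, 1 and -0.30. Quantile normalization raised the median of all genes by 0.10 and a median-of-ratios factor by 0.07. Under all 3 of these scalings 9 of the 22 lower calls held: EPRS1, KARS1, PHGDH, PSAT1, SHMT2, MTHFD2, ALDH18A1, PYCR1 and SLC7A5. The 3 higher calls, MARS1, DDIT3 and SLC7A11, held under all 3.

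**Figure D2:**
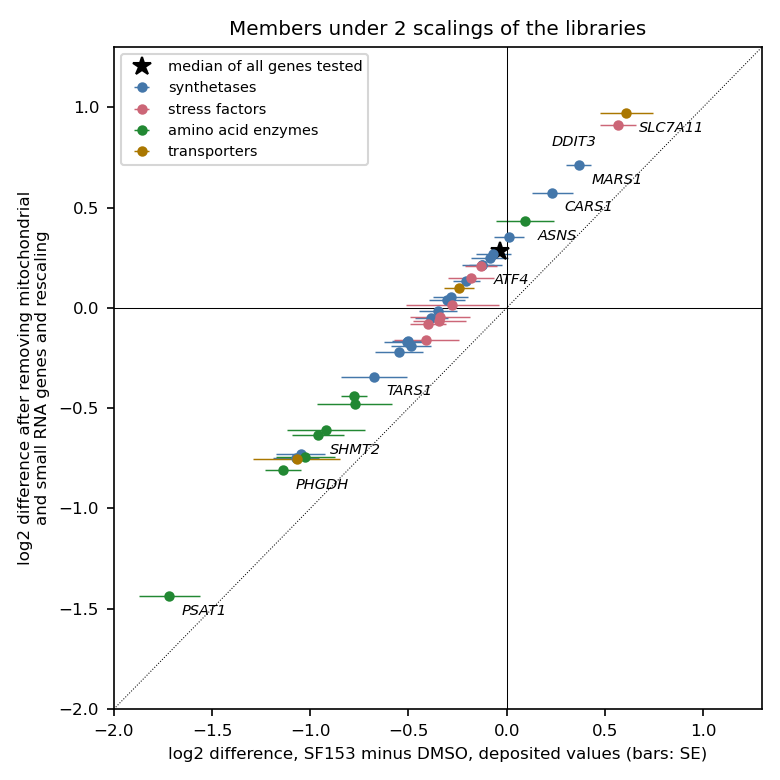
Log2 difference (SF153 minus DMSO) of each gene with deposited values (x axis, bars are standard errors) against that after removal of mitochondrial and small RNA genes (y axis); the star is the median of all genes tested and the dotted line is equality. All points lie above the line: PSAT1 has the most negative difference in both, and MARS1, DDIT3 and SLC7A11 are above 0 in both.

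In serine synthesis PHGDH, PSAT1 and PSPH act in turn on a glycolytic intermediate. The mRNAs of these 3 enzymes were called lower with the deposited values, and no enzyme activity was measured. PSAT1, the aminotransferase of the middle step (chromosome 9, 78297143 to 78330093, plus strand, GRCh38, GENCODE 29), had signals of 38.4, 37.3, 33.0 and 25.6 in DMSO (1.1, 1.2, 2.1 and 2.2). In SF153 its signals were 11.7, 9.38, 7.64 and 9.28, all below the lowest DMSO value. Its mean was 3.54-fold lower, 9.49 ± 1.65 against 33.6 ± 5.80 (SD, n = 4 each), with a log2 difference of -1.72 (SE 0.15, limma adjusted p = 5.74e-05), the most negative of the 38 genes.

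PHGDH, the dehydrogenase that opens the pathway (chromosome 1, 119648411 to 119744226, plus strand), had signals of 93.1, 83.2, 76.4 and 69.9 in DMSO. The SF153 libraries were close together at 35.5, 35.8, 36.6 and 35.5, and the groups did not overlap. The mean fell 2.25-fold, with a log2 difference of -1.14 (SE 0.09, limma adjusted p = 3.65e-05). PSPH, the phosphatase that releases serine, had 15.1, 17.4, 14.8 and 15.1 in DMSO and 9.46, 5.40, 11.6 and 9.42 in SF153. It was lower in every SF153 library, with a log2 difference of -0.77 (limma adjusted p = 0.0101). Its call was lost after removal of mitochondrial and small RNA genes (-0.48, limma adjusted p = 0.0886) and in batch 2 alone (-0.48, limma adjusted p = 0.0922).

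The mRNAs of the mitochondrial enzymes that pass carbon from serine to folate fell as well. SHMT2, which splits serine to glycine and a one-carbon unit, had signals of 74.0, 71.1, 65.2 and 56.8 in DMSO and 43.2, 33.5, 30.6 and 28.9 in SF153, without overlap (log2 difference -0.96, limma adjusted p = 0.000452). MTHFD2, the next enzyme, had 89.5, 91.9, 90.2 and 83.3 in DMSO and 54.5, 48.8, 52.1 and 50.3 in SF153. Its libraries varied little within a treatment and its mean was 1.73-fold lower (log2 difference -0.78, SE 0.07, limma adjusted p = 4.95e-05). The mRNAs of both enzymes of proline synthesis here showed the same direction. ALDH18A1, which activates glutamate, had a log2 difference of -0.92 (limma adjusted p = 0.00554) and PYCR1, which makes proline in mitochondria, -1.03 (limma adjusted p = 0.000633). PYCR1 signals were 15.3 to 20.6 in DMSO and 6.45 to 9.95 in SF153. ALDH18A1 was 27.2 to 34.6 in DMSO, 24.2 and 18.2 in SF153 batch 1 and 11.4 and 13.6 in SF153 batch 2, so that it differed by -0.51 (log2) within batch 1, where it was not called (limma adjusted p = 0.109), and by -1.33 within batch 2. With the 2 libraries of a treatment and batch averaged, ALDH18A1 was not called (limma adjusted p = 0.0503). The 2 SF153 libraries lowest in ALDH18A1 were those with a mitochondrial share of 16.8% and the lowest summed signal.

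ASNS, which makes asparagine and is a standard readout of ATF4 activity, stood apart from the other enzymes of its class. Its signals were 36.3, 36.9, 33.8 and 37.1 in DMSO and 38.6, 27.5, 44.0 and 46.7 in SF153. The SF153 values lay on both sides of DMSO, with SF153 1.2 the lowest of all 8 libraries, and the difference of 0.09 (SE 0.15) did not pass the test (limma adjusted p = 0.653). After removal of mitochondrial and small RNA genes the ASNS difference was 0.43, also not called (limma adjusted p = 0.0532). It was -0.16 in batch 1 alone and 0.35 in batch 2 alone, called in neither. Within a library, the ratio of ASNS to PSAT1 signal does not depend on the library's scaling. That ratio averaged 1.10 ± 0.23 over DMSO libraries and 4.26 ± 1.35 over SF153 libraries (SD, n = 4 each), from 0.94 to 1.45 in DMSO and from 2.93 to 5.76 in SF153.

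**Figure D3:**
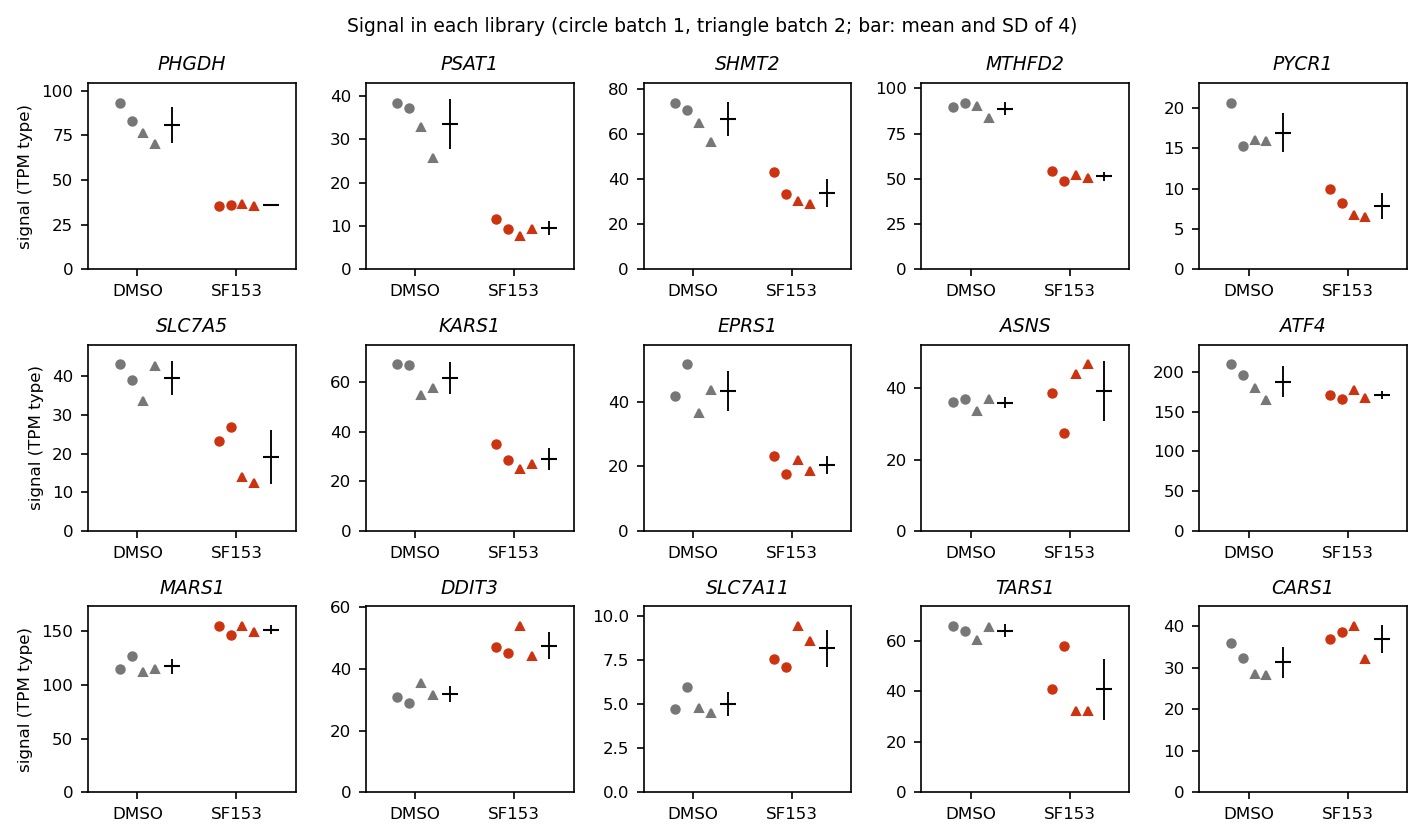
Deposited signal (y axis, from 0, TPM type) of 15 of the genes, chosen after their values were seen, in each library of DMSO (grey) and SF153 (red); circles are batch 1, triangles batch 2, and crosses the mean with SD of 4 libraries. PSAT1, PHGDH and KARS1 do not overlap between treatments, ASNS and ATF4 do, and MARS1, DDIT3 and SLC7A11 are higher in every SF153 library.

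The synthetases divided by gene. KARS1, the lysyl enzyme of the multisynthetase complex (chromosome 16, 75627474 to 75648643, minus strand), had signals of 67.0, 66.7, 54.7 and 57.7 in DMSO and 35.1, 28.4, 25.0 and 27.0 in SF153. The groups were well apart, and its mean fell 2.13-fold (log2 difference -1.07, SE 0.12, limma adjusted p = 0.000124). EPRS1, which charges glutamate and proline tRNAs with 1 protein of that complex (chromosome 1, 219968601 to 220046658, minus strand), had 41.8, 51.6, 36.5 and 43.5 in DMSO and 23.3, 17.8, 22.1 and 18.6 in SF153. It was lower in every SF153 library, by 2.12-fold in the mean (log2 difference -1.05, SE 0.12, limma adjusted p = 0.000200).

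MARS1, the methionyl enzyme of the same complex (chromosome 12, 57475445 to 57517569, plus strand), went the other way. Its signals were 114.5, 127.0, 111.9 and 114.6 in DMSO and 154.5, 145.9, 154.4 and 149.2 in SF153, with every SF153 library above every DMSO library. The mean was 1.29-fold higher (log2 difference 0.37, SE 0.06, limma adjusted p = 0.00179), and MARS1 was the 1 synthetase called higher. With the 2 libraries of a treatment and batch averaged, it was not called (limma adjusted p = 0.0531). The ratio of MARS1 to KARS1 within a library was 1.91 ± 0.15 in DMSO and 5.31 ± 0.75 in SF153, and that of MARS1 to EPRS1 was 2.72 ± 0.25 and 7.46 ± 0.77. Neither ratio overlapped between treatments. Of the 7 synthetases of the complex, 5 were lower (EPRS1, KARS1, LARS1, QARS1 and RARS1), MARS1 was higher and IARS1 was not called (-0.13). Of the 12 outside it, 7 were lower and 5 were not called.

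Among the other synthetases called lower, TARS1 (threonine) had signals of 65.7, 63.9, 60.3 and 65.5 in DMSO and 41.0, 57.7, 32.0 and 32.3 in SF153. SF153 1.2 was near the DMSO values and the batch 2 libraries were lowest, and the change within batch 1 was -0.41 and within batch 2 -0.94 on the log2 scale (both batches -0.68, limma adjusted p = 0.0104). GARS1 (glycine) had 52.4, 52.7, 51.5 and 51.9 in DMSO and 41.5, 37.9, 35.3 and 32.2 in SF153, a fall of 1.42-fold in the mean (limma adjusted p = 0.00145). GARS1-DT, the divergent noncoding transcript listed beside GARS1 and singled out after its values were seen, rose from 114.4 ± 4.65 to 171.1 ± 10.4 (log2 difference 0.57, limma adjusted p = 0.00019). WARS1 (tryptophan), VARS1 (valine) and FARSB (the beta chain of the phenylalanyl enzyme) had log2 differences of -0.55, -0.51 and -0.49. FARSA, the alpha chain, was at -0.38, and the ratio of FARSA to FARSB signal was 3.96 ± 0.51 in DMSO and 4.4 ± 0.48 in SF153, with overlapping libraries.

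RARS1 (arginine), QARS1 (glutamine), YARS1 (tyrosine) and LARS1 (leucine) had called differences of -0.35, -0.30, -0.29 and -0.20. The last 3 of these calls lay close to the threshold. LARS1 (limma adjusted p = 0.0456) was lost on leaving out any 1 library except DMSO 1.2 or SF153 2.2. QARS1 was lost without DMSO 1.1, DMSO 1.2, SF153 1.2 or SF153 2.2, and YARS1 without DMSO 1.1, DMSO 1.2, DMSO 2.1, SF153 1.1 or SF153 1.2. With 1 library left out at a time, the difference was -0.24 to -0.17 for LARS1, -0.37 to -0.26 for QARS1 and -0.34 to -0.23 for YARS1. After removal of mitochondrial and small RNA genes the sign of all 3 turned, to 0.14, 0.04 and 0.05 for LARS1, QARS1 and YARS1, and none was called. With the 2 libraries of a treatment and batch averaged to 1 value, 5 of the 12 lower calls remained: EPRS1, GARS1, KARS1, VARS1 and WARS1.

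The 6 synthetases not called were AARS1, CARS1, HARS1, IARS1, NARS1 and SARS1. CARS1, for cysteine, had signals of 36.1, 32.4, 28.6 and 28.3 in DMSO and 36.9, 38.6, 40.1 and 32.2 in SF153, a difference of 0.23 (limma adjusted p = 0.111), and was called higher under each of the 3 other scalings. NARS1, for asparagine, differed by 0.01 (SE 0.08) with signals of 135 to 157 in DMSO and 137 to 163 in SF153. AARS1, HARS1, IARS1 and SARS1 had differences between -0.13 and -0.07, and between 0.21 and 0.27 after removal of mitochondrial and small RNA genes. IARS1 signals did not overlap, from 76.0 to 78.3 in DMSO and 67.5 to 74.6 in SF153, but the difference did not pass the test (limma adjusted p = 0.134).

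Grouped by the element shown above, the 7 synthetases with it had 2 lower calls (GARS1 and TARS1), 1 higher (MARS1) and a median difference of -0.07, from -0.68 to 0.37. The 9 with a window but without it had 7 lower calls, 2 not called (HARS1 and SARS1) and a median of -0.38, from -1.07 to -0.09. After removal of mitochondrial and small RNA genes the medians were 0.27 and -0.05. With the deposited values, the 3 synthetases without a window (LARS1, VARS1 and YARS1) were all called lower, with a median of -0.29. Over all genes tested that had a window, the median was -0.13 for the 253 with the element and -0.13 for the 9403 without it, with 27.3% and 31.6% called lower. The 5839 tested genes without a window had a median of 0.13, with 12.4% called lower. Among members other than synthetases the medians were -0.32 with the element (n = 4) and -0.34 without it (n = 11). This grouping was made after the differences were seen and carries no test. The 13 synthetases usually listed as ATF4 targets had 7 lower and 1 higher call and a median of -0.20, and the 6 usually not listed had 5 lower calls and a median of -0.37. After removal of mitochondrial and small RNA genes the 13 had 1 lower and 5 higher calls and a median of 0.14. The 6 then had 1 lower call and a median of -0.03.

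**Figure D4:**
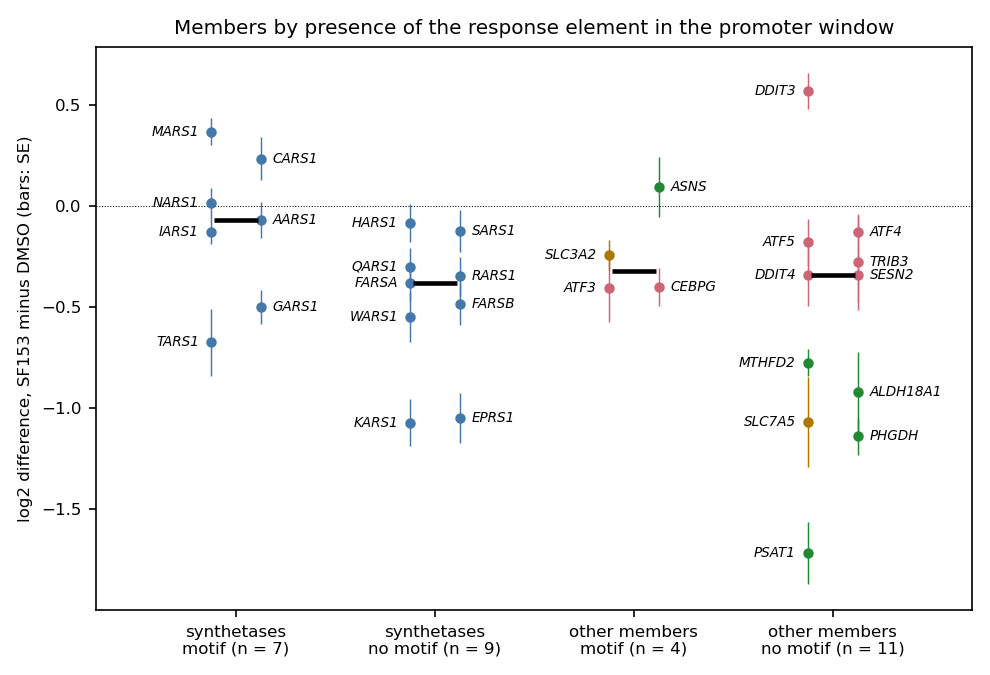
Log2 difference (SF153 minus DMSO, y axis, bars are standard errors) of members with a promoter window, split by presence of TGATGNAA; blue points are synthetases, red stress factors, green amino acid enzymes and ochre transporters, and black bars are medians. The 7 synthetases with the element have a median of -0.07 and the 9 without it -0.38, while the other members have medians of -0.32 and -0.34.

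Among the stress factors, ATF4 mRNA (chromosome 22, 39519695 to 39522685, plus strand) had signals of 209, 196, 179 and 165 in DMSO and 170.3, 166, 177 and 167 in SF153. The SF153 values lay within the span of DMSO, and the difference of -0.13 (SE 0.08) did not pass the test (limma adjusted p = 0.24). Its direction depended on the setting. ATF4 was called lower in batch 1 alone (-0.27, limma adjusted p = 0.0419) and not in batch 2 alone (0.00, limma adjusted p = 0.977). It was called higher once a trend on gene length and mean signal was taken out (0.32, limma adjusted p = 0.0130), and was 0.24 under quantile normalization and 0.21 after removal of mitochondrial and small RNA genes, not called in either (limma adjusted p = 0.0583 and 0.0580). ATF4 had the highest DMSO signal of the 38 genes, and these data hold no measure of its protein.

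DDIT3, the transcription factor CHOP and a target of ATF4 (chromosome 12, 57516588 to 57521737, minus strand), had signals of 31.0, 29.1, 35.4 and 31.7 in DMSO and 47.0, 45.2, 53.9 and 44.2 in SF153. Every SF153 library was above every DMSO library, and the mean was 1.5-fold higher (log2 difference 0.57, SE 0.09, limma adjusted p = 0.00106). The ratio of ATF4 to DDIT3 signal was 5.94 ± 0.94 in DMSO and 3.59 ± 0.21 in SF153, without overlap. DDIT3 and MARS1 are neighbours on opposite strands whose GENCODE 29 spans share 982 bases, of which 62 are exon bases of both. The libraries keep strand, but the sources used here do not give the strand setting of the authors' counting, so the values of these 2 genes may share some reads.

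CEBPG, a C/EBP partner of ATF4, was called lower, from 16.6 to 19.6 in DMSO and 12.4 to 14.6 in SF153 (log2 difference -0.40, limma adjusted p = 0.00820). That call was lost under quantile normalization and after removal of mitochondrial and small RNA genes (-0.20 and -0.08). The other 5 stress factors did not pass the test, with differences of -0.41 for ATF3, -0.34 for DDIT4 and SESN2, -0.28 for TRIB3 and -0.18 for ATF5. After removal of mitochondrial and small RNA genes the last 2 were 0.01 and 0.15, also not called. ATF3 is a stress-induced repressor and had signals of 3.77 to 4.75 in DMSO and 2.42 to 4.11 in SF153, the lowest DMSO level of the 38 genes. TRIB3, a pseudokinase that feeds back on ATF4, had 7.19, 8.41, 5.56 and 5.59 in DMSO and 4.38, 9.14, 3.92 and 4.75 in SF153, so that SF153 1.2 was the highest of all 8. ATF3 was called lower without SF153 1.1 and TRIB3 without SF153 1.2. DDIT4 and SESN2, both inhibitors of mTORC1 signalling, had 6.25 to 9.24 and 4.83 to 5.76 in DMSO and 5.07 to 6.49 and 3.45 to 4.74 in SF153. DDIT4 was called lower only in the fit with batch as a block, where its libraries are compared within batches.

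The transporters SLC7A5 and SLC7A11 each pair with SLC3A2, the heavy chain that carries them to the membrane. SLC7A11, the cystine and glutamate exchanger (chromosome 4, 138164097 to 138242349, minus strand), had signals of 4.74, 6.0, 4.79 and 4.53 in DMSO and 7.58, 7.11, 9.46 and 8.60 in SF153. It was higher in every SF153 library, by 1.63-fold in the mean (log2 difference 0.61, SE 0.13, limma adjusted p = 0.00612). SLC7A11 was not called when the 2 libraries of a treatment and batch were averaged (limma adjusted p = 0.0596) or in batch 1 alone (0.40, limma adjusted p = 0.215). SLC3A2 was 96.4 to 115 in DMSO and 85.1 to 91.9 in SF153 (log2 difference -0.24, limma adjusted p = 0.0301), a call lost without DMSO 1.1, DMSO 1.2, SF153 2.1 or SF153 2.2.

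SLC7A5, the exchanger for leucine and other large neutral amino acids (chromosome 16, 87830023 to 87869488, minus strand), had 43.1, 39.1, 33.6 and 42.7 in DMSO and 23.3, 26.9, 14.1 and 12.5 in SF153. The groups did not overlap (log2 difference -1.07, SE 0.22, limma adjusted p = 0.00455), and the difference was -0.69 in batch 1 and -1.45 in batch 2. With libraries averaged as above it was not called (limma adjusted p = 0.0509). This value is uncertain because the tables also list 2 near-identical pseudogene copies. SLC7A5P2 had signals of 43.3, 44.6, 45.8 and 48.8 in DMSO and 67.3, 79.7, 63.4 and 60.3 in SF153 (log2 difference 0.55, limma adjusted p = 0.00152). SLC7A5P1 was listed at 0 in DMSO 1.2 and in SF153 1.2 and at 7.49 to 16.5 in the other 6 libraries. The sum of SLC7A5 and its copies averaged 95.8 ± 9.01 for DMSO and 96.6 ± 12.9 for SF153 (SD, n = 4 each), a ratio of 1.01. A two-sided exact permutation test of the sum gave p = 0.943, where 4 against 4 allows no p below 0.0286. The sum was chosen after the values were seen, and a high p from so few libraries does not show that it is unchanged. If the signal takes transcript length into account, a sum of signals is not a sum of reads.

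None of the 38 genes was called for a difference of the SF153 response between batches by the limma interaction term, against 1.15% of all genes tested. At an unadjusted p below 0.05 were 6 of the 38, against 10.1% of all genes, and the lowest adjusted p of the 38 was 0.235. The smaller sets of 1 batch alone called 4 synthetases lower in batch 1 (EPRS1, GARS1, KARS1 and YARS1) and 6 in batch 2 (EPRS1, GARS1, KARS1, TARS1, VARS1 and WARS1), of 12 with both. DDIT3, MARS1, PHGDH, PSAT1, SHMT2, MTHFD2, PYCR1 and SLC7A5 kept their calls in each batch alone.

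Lists of related genes, chosen by name, are read beside the shares over all genes tested, 24.3% lower and 13.0% higher with the deposited values and 12.6% lower and 32.3% higher after removal of mitochondrial and small RNA genes. Of the 6 other cytosolic genes of tRNA charging and handling, 4 were lower and 2 were not called. They included AIMP2, EEF1E1 and AIMP1, non-enzyme parts of the multisynthetase complex, at -0.86, -0.81 and -0.29. AIMP2 fell from 22.4 ± 3.17 to 11.9 ± 2.09 and EEF1E1 from 22.4 ± 1.43 to 12.6 ± 2.87. After removal of mitochondrial and small RNA genes AIMP2 and EEF1E1 were still called lower (-0.56 and -0.51), and AIMP1 turned to 0.04 and was not called. XPOT, the tRNA exporter, and TARS3, a second threonyl enzyme, were then called higher (0.37 and 0.74, limma adjusted p = 0.0216 and 0.00727; named after their values were seen), so that the list had 2 lower and 2 higher calls. Of 17 mitochondrial synthetases, 2 were lower, among them IARS2 (-1.21, limma adjusted p = 0.000218), and the list's median was -0.16. After the removal 2 were lower and 6 higher, with a median of 0.16.

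The list upstream of ATF4 held 17 genes for eIF2, its kinases and their activators, its phosphatases and its exchange factor. Of these, 6 were lower and 1 was higher, with a median of -0.16. After the removal 2 were lower and 5 higher, with a median of 0.18. EIF2S1 and EIF2S2, the alpha and beta subunits of eIF2, were the most changed, from 70.6 ± 8.96 to 24.4 ± 10.7 (log2 difference -1.59, limma adjusted p = 0.00140) and from 28.7 ± 2.88 to 11.0 ± 2.68 (-1.33, limma adjusted p = 0.000218). EIF2AK1, the kinase that senses heme, was at -0.71 and OMA1, a mitochondrial protease that signals to it, at -0.62. EIF2S1 and EIF2S2 were also called lower after removal of mitochondrial and small RNA genes (-1.28 and -1.04), and EIF2AK1 and OMA1 were not (-0.39 and -0.30). The 1 higher call was EIF2AK2, the kinase that senses viral RNA, at 0.51 (limma adjusted p = 0.00202), and at 0.86 and called after the removal. The kinases EIF2AK3 and EIF2AK4 were called in neither fit. These kinases were named after their values were seen.

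Of 27 further genes usually listed as ATF4 targets, 19 could be tested, and 5 were lower and 2 higher, shares near those of all genes. After the removal 2 were lower and 5 higher, and the median of -0.21 became 0.12. EIF4EBP1, an inhibitor of cap-dependent translation, fell from 46.0 ± 7.74 to 19.2 ± 5.23 (log2 difference -1.24, limma adjusted p = 0.000674) and SLC1A5, the glutamine transporter, from 47.4 ± 3.99 to 20.7 ± 4.95 (-1.18, limma adjusted p = 0.000324). VEGFA, the angiogenic growth factor, rose from 21.9 ± 4.19 to 39.7 ± 6.92 (0.83, limma adjusted p = 0.00325) and TNFRSF10B, a death receptor that DDIT3 can induce, from 41.9 ± 8.83 to 74.0 ± 7.06 (0.83, limma adjusted p = 0.00179).

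Of the 13 tested one-carbon, glutamate and serine enzymes outside the 38 genes, 9 were lower and 2 higher, with a median of -0.65. After the removal 14 could be tested, and 5 were lower and 4 higher, with a median of -0.37. TYMS, the thymidylate synthase that serves DNA synthesis, fell from 123 ± 9.64 to 35.3 ± 2.39 (log2 difference -1.77). GLUL, which makes glutamine, fell from 344 ± 24.6 to 161 ± 14.9 (-1.09). AMT, of the glycine cleavage system, rose from 6.83 ± 2.73 to 16.6 ± 3.4 (1.21). These 3 were called in the same direction after removal of mitochondrial and small RNA genes, at -1.45, -0.75 and 1.59.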

How the data were processed

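The members, gene lists and tests were chosen with earlier results of these data known. The deposited signal values are named both cpm and TPM by the submitters and are read here as a TPM type. The authors' columns sum to between 828381 and 1027119 over 17912 genes, with the 2 lowest sums in SF153 batch 2. The sources used here do not give the scaling behind these sums. CASAVA 1.8.2, STAR, Salmon, edgeR and GRCh38 are named, without roles, per the submitters' processing notes. Ribosomal RNA was depleted from total RNA and second strands were marked with dUTP, per the labels' protocols. No read totals are given, so depth is unknown and no counting interval is printed. TPM had been assumed in planning and the same test was used.

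Differences were tested with limma 3.58.1 (R 4.3.3) on log2(signal + 1), a scale that understates changes of low genes, with an intensity trend, 4 against 4 libraries, for genes with a mean of at least 1. Adjustment was by Benjamini-Hochberg over all 15542 genes, and the script was tested on simulated data. Positions came from GENCODE release 29 (17235 genes matched) and current symbols for 17887 genes. Promoter windows of 300 bases came from RefSeq. All 38 members present could be named, with up to 4 called genes of each related list that had the largest absolute difference. Of the genes this rule selected, 3 are not reported here. SLC7A5P1, SLC7A5P2, GARS1-DT, XPOT, TARS3, EIF2AK2, EIF2AK3 and EIF2AK4 were added after values were seen. CD79A and PDGFRB are named as the sole members of their marker lists in the tables.

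The labels give each library a batch number that both treatments share, and the block used it; the values show little trace of it. The change from batch 1 to batch 2 in DMSO correlated with that in SF153 at r = 0.067 (Pearson, across genes, which are not independent replicates). Other settings tried concerned the pseudocount, low-value filter, scaling, variance prior, batch, averaging, single libraries and a trend on length and mean.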

Additional observations from a re-analysis of the deposited data

Results flagged for a closer look

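In 4 of 76 groups of 4 libraries, 1 library of a member stood apart from the other 3 by a gap that, as a share of the group's range, exceeded Dixon's critical value; chance gives about 1 in 20 such groups. WARS1 was 33.7 in SF153 1.1 and 24.8 to 26.2 in the other 3 SF153 libraries, and its lower call held without SF153 1.1. TRIB3 was 9.14 in SF153 1.2 and 3.92 to 4.75 in the others. PSPH was 17.4 in DMSO 1.2 and 14.8 to 15.1 in the others. PYCR1 was 20.6 in DMSO 1.1 and 15.3 to 16.0 in the others. The calls of PSPH and PYCR1 held without these libraries.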

How the results depend on the processing

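Under quantile normalization, removal of mitochondrial and small RNA genes, averaging of libraries, batch 1 alone, batch 2 alone and removal of the length and mean trend, 7, 2, 5, 4, 6 and 7 synthetases were called lower, in place of 12. Higher synthetase calls, 1 in the reported fit, were 2 with a median-of-ratios factor, 2 under quantile normalization, 5 after the removal, 0 when averaged (limma, MARS1 at an adjusted p of 0.0531) and 3 with the trend taken out. The synthetase median was -0.23, -0.10, 0.038 and -0.14 under the median-of-ratios factor, quantile normalization, removal and trend. Of the other members 6 lower and 1 higher were called when averaged and 1 higher in batch 1 alone, in place of 10 and 2, and their median of -0.40 became -0.23 with a pseudocount of 5, -0.080 after the removal and -0.28 with the trend taken out. Among genes called with the deposited values or under the alternative, signs turned after the removal for AARS1 (0.27), IARS1 (0.21), LARS1 (0.14), QARS1 (0.038), YARS1 (0.053), SLC3A2 (0.10) and AIMP1 (0.045), for LARS1 under quantile normalization (0.047) and with the trend taken out (0.041), for ATF4 with the trend taken out (0.32), and for SLC7A5 summed with its copies (0.0067, an alternative chosen after seeing the data). Of genes called in neither, HARS1, SARS1, ATF4, ATF5 and TRIB3 turned after the removal, AARS1, HARS1, IARS1, SARS1, ATF4 and ATF5 under quantile normalization, AARS1, HARS1, SARS1 and ATF5 with the trend taken out and AARS1 with the median-of-ratios factor. The averaged and single-batch fits use fewer values. For the other alternatives the cause was not tested. With batch as a replicate block, 12 synthetases and 11 other members were called lower, and DDIT4 was the 1 member whose call differed. Leaving out 1 library at a time gave 9 to 11 lower synthetases and 9 to 11 lower other members. Pseudocounts of 0.1 and 5 and the robust variance prior changed no member's call. Depth is unknown, and 4 libraries a treatment limit the precision.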
